A study of Mus musculus with 14 samples.

Results

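The ATPase Smarca4, also called Brg1, was located by ChIP-seq in mouse embryonic stem cells, and 6231 of the 100253 merged Smarca4 sites formed the class described here: distal sites that carried acetylated lysine 27 of histone H3 (H3K27ac) without trimethylated lysine 4 (H3K4me3). The Smarca4 peaks of both conditions were merged, sites in a GENCODE gene body or within 2.5 kb of an annotated transcription start site (TSS) were set aside, and of the 28545 distal sites left, those that overlapped an H3K27ac island of either condition and no H3K4me3 island of either condition were kept. The sites were thus chosen by the measured Smarca4, H3K27ac and H3K4me3 calls of these same lists, and their shares for those marks are a description of the lists and not a test.

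The cells were the clone 81K1, a line made from OG2 mouse embryonic stem cells in which an shRNA against Smarcb1 stands under a doxycycline-inducible promoter in the Rosa26 locus. They were grown on gelatine with leukaemia inhibitory factor (LIF) and without feeder cells. The knockdown (kd) cells received 1 µg doxycycline per ml for 72 h and the control cells, which carried the same cassette, received none. All values come from 1 library for each antibody and condition from this single clone, so differences between the conditions have no replicate check, no p-value is given, and the addition of doxycycline and the loss of Smarcb1 cannot be told apart. The methods state an approximate read number per sample for the Ezh2, H3K27ac and H3K4me3 libraries and none for the others. The depth that each library reached is unknown. The 95% Wilson intervals of shares cover counting error alone, with neighbouring sites counted as if they were independent. A site bound in fewer cells and a site bound more weakly in every cell cannot be told apart in these bulk lists. At the annotated starts of 6 stem cell genes, 5 lay in H3K4me3 and H3K27ac islands in both conditions, the exception being Esrrb, whose start lay in an H3K27me3 island in both. The starts of all 7 lineage genes lay in H3K27me3 islands in both conditions, and none of 4 fibroblast genes that feeder cells would show had H3K27ac, although 2 of these (Col1a1 and Thy1) had H3K4me3 after kd.

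Smarca4 is a catalytic subunit of the BAF complexes, which use ATP to slide or eject nucleosomes, and Smarcb1 (Snf5, Baf47) is a core subunit that helps to anchor the complex on the nucleosome. H3K27ac marks active enhancers and promoters, whereas H3K4me3 is concentrated at promoters, so that a distal region with the first mark and without the second is the usual description of an active enhancer. In embryonic stem cells such regions are often occupied by Oct4, Sox2, Nanog, Klf4, Esrrb and Stat3 and lie near the genes of the pluripotency network.

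The sequences below show what the sites look like at the base level: 6 stretches from sites near genes of the naive network or named further down for their scores, and 1 each from a strong site called in only 1 of the conditions. Each is a stretch of 150 bp from the reference genome GRCm38 (mm10), and capitals mark matches on either strand to motifs that were searched for: the Oct4-Sox2 core (GCATNACAA), the octamer (ATTTGCAT), the Esrrb (TCAAGGTCA), Klf (GGGTGTGG) and Stat (TTCCNGGAA) motifs and the CTCF consensus. A match is a run of letters and not a proven binding site.
Strongest site near Klf2, Klf match, chr8:72334531-72334680, plus strand: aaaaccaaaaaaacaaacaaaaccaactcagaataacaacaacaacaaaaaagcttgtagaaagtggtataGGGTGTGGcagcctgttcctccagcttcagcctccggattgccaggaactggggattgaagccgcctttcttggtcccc
Site near Klf4, Stat match, chr4:55474061-55474210, plus strand: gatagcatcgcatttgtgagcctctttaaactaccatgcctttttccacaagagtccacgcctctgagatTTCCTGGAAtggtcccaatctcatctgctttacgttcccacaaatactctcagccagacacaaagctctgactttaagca
Strongest site near Prdm14, Stat and Oct4-Sox2 core matches, chr1:13094692-13094841, plus strand: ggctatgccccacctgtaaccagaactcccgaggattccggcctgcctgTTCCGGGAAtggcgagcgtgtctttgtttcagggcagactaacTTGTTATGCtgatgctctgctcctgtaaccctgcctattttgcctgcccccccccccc
Site near Nanog, Oct4-Sox2 core match, chr6:122686106-122686255, plus strand: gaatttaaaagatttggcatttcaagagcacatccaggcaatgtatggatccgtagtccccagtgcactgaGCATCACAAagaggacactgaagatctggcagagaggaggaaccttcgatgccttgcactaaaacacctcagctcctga
Site near Dppa3, CTCF and octamer matches, chr6:122660644-122660793, plus strand: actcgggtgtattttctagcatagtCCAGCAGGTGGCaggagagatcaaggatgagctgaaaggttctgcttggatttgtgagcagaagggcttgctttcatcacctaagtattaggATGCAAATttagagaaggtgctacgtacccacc
Site near Tle4 with a low score after kd, Klf and Oct4-Sox2 core matches, chr19:14666776-14666925, plus strand: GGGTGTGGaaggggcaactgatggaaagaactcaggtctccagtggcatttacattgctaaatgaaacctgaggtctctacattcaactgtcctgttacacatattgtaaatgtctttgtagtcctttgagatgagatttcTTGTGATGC
Site near Qk called in control alone, Esrrb and Klf matches, chr17:10366698-10366847, plus strand: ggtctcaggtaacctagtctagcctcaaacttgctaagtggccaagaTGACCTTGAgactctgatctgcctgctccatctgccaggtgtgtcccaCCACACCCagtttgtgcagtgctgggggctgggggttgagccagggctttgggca
Site near Kcnh3 called after kd alone, CTCF match, chr15:99215081-99215230, plus strand: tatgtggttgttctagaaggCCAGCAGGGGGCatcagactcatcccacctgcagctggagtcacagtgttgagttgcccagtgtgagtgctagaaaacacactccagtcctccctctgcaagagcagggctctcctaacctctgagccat

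Of the 6231 sites, 2522 (40.5%, 39.3 to 41.7) held a Smarca4 peak in both lists, 1899 (30.5%, 29.3 to 31.6) in the control list alone and 1810 (29.0%, 27.9 to 30.2) in the kd list alone. The background was 34.6% control-only and 25.7% kd-only over all merged Smarca4 sites, and 33.4% and 36.3% over all distal sites. The balance of control-only and kd-only sites depended on the settings. With peaks of a MACS2 score of at least 50 alone, 39.4% were control-only and 23.5% kd-only, and with the longer lists shortened to the length of the shorter ones the order turned, to 28.2% and 31.9%. Among 245 intergenic sites 2 to 2.5 kb from a start, which were left out, 28.2% were control-only and 33.5% kd-only, and among the 273 sites kept at 2.5 to 3 kb the shares were 27.8% and 35.5%.

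With repeat-masked sites included, the other distal classes had control-only and kd-only shares whose intervals did not overlap those of this class. Sites with H3K27ac and H3K4me3 were control-only in 3.72% (3.28 to 4.21) and kd-only in 53.7% (52.4 to 54.9) of 6322 cases. Sites with none of the 3 histone marks were control-only in 51.2% (50.1 to 52.3) and sites with H3K27me3 and neither of the other marks in 50.3% (49.0 to 51.5). The classes also differed in repeat content: 82.2% of the sites with both active marks were at least 50% repeat-masked in the reference genome, against 26.2% of the sites with H3K27ac alone. Within the class, the 1635 sites that were at least 50% repeat-masked were kd-only in 45.8% (43.4 to 48.2) and control-only in 29.1% (27 to 31.4), whereas the 4596 sites with less masked sequence were kd-only in 23.1% (21.9 to 24.3) and control-only in 31.0% (29.6 to 32.3). Among the other distal sites under 50% repeat-masked, those with both active marks were kd-only in 19.1% (16.9 to 21.5). They were control-only in 12.3% (10.5 to 14.3). Those with H3K27me3 alone were kd-only in 23.6% (22.5 to 24.7), and those with none of the marks in 26.2% (25.2 to 27.3). Without repeat-masked sites, those with both active marks thus had a lower kd-only share than this class. The interval of the H3K27me3 sites overlapped that of this class. Only uniquely mapped reads entered the peak calls, and the part of mappability in these shares was not tested.

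**Figure D1:**
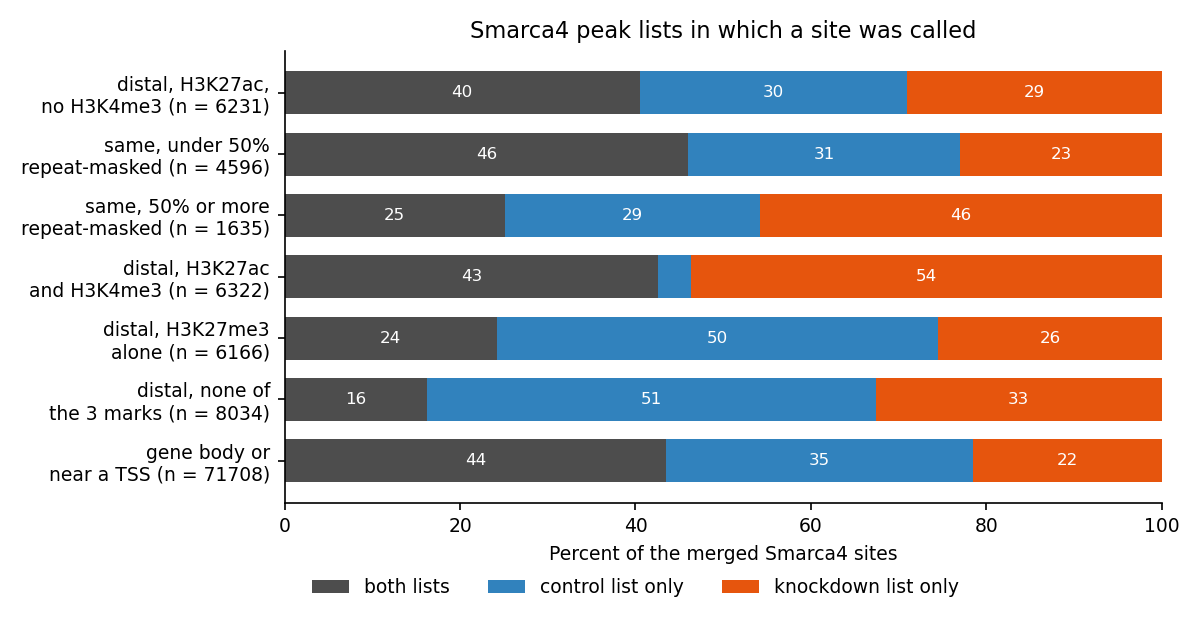
Share of merged Smarca4 sites (x axis, percent) called in both peak lists (grey), in the control list alone (blue) and in the kd list alone (orange), for the distal H3K27ac sites without H3K4me3, their 2 repeat strata and 4 other site classes. Repeat-masked sites were kd-only in 45.8% of cases and the other sites of the class in 23.1%. The distal sites with both H3K27ac and H3K4me3 were kd-only in 53.7%, and in 19.1% among those under 50% repeat-masked, which are not drawn.

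The peak score, an integer that MACS2 derives from the significance of a peak and that was at least 13 in both lists, separated the shared sites from those called once. Shared sites had a median score of 80.0 in control and 73.0 after kd and a median width of 755 bp. Control-only sites had a median score of 51.0 and a width of 340 bp, and kd-only sites a median score of 42 and a width of 269 bp. Among the sites with a control peak, the 442 with the highest control scores (162 to 575) were also called after kd in 92.5% (89.7 to 94.6) of cases and the 443 with the lowest (13 to 32) in 39.5% (35.1 to 44.1). Of the sites with a kd peak, the 433 with the highest kd scores (130 to 651) were also called in control in 94.9% (92.4 to 96.6) and the 434 with the lowest (13 to 28) in 33.2% (28.9 to 37.7). Sites called once were thus mostly narrow peaks with low scores.

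Scores of the 2522 shared sites had a median log2 ratio, kd over control, of -0.17, with quartiles of -0.81 and 0.45, and the median over all 39830 shared Smarca4 sites was -0.07. The score was lower after kd by 2-fold or more at 503 sites (19.9%, against 17.3% of all shared sites) and higher by 2-fold or more at 267 (10.6%, against 15.0%). Distal sites with H3K27me3 alone and with none of the marks had medians of -0.33 and -0.26. Their scores were lower by 2-fold or more in 24.9% and 22.9% and higher in 10.7% and 10.0%. Sites in a gene body or near a TSS had a median of -0.12, with 17.6% lower and 12.2% higher. Distal sites with both active marks, which count among all shared sites, had a median of 1.23, with 4.19% lower and 56.6% higher. Among 1083 shared sites under 50% repeat-masked with a score of at least 100 in 1 list, 282 (26%) were lower and 123 (11.4%) higher by 2-fold or more, against 21.4% and 11.0% of the 22692 Smarca4 sites of the whole genome that pass the same filters. Since the scores were not scaled between the libraries, the ratio of 1 site can be read only against the median of all sites.

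The 10 sites with the highest scores in each list were all shared. The site with the highest control score lay 12.6 kb upstream of Terf2, which encodes a telomere-binding protein, with a score of 575 in control and 383 after kd. A site 42.4 kb upstream of Hpgd had 566 and 140, one 74.4 kb upstream of Zmat4 had 537 and 274, and one 15.3 kb downstream of the start of Klf2 had 413 and 115. These 4 of the 10 highest control scores lay on chromosome 8. A site 9.86 kb downstream of the start of Gadd45b, a stress-induced regulator of DNA demethylation and cell growth, had 439 in control and 95 after kd. After kd the highest score belonged to a site 12.2 kb downstream of the start of Arc, an activity-regulated gene of neurons, with 350 in control and 651 after kd. A site 8.74 kb upstream of the receptor tyrosine kinase gene Epha2 was high in both, with 512 and 637, and so was a site 124 kb upstream of the Mediator kinase module gene Med13l, with 434 and 502.

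Among shared sites with little masked sequence and a score of at least 100 in 1 list, the lowest ratio was found 115 kb upstream of Paqr3, where the score was 225 in control and 15 after kd. The site near Tle4, a Groucho-type corepressor gene, had 132 and 17 and lay 68.6 kb upstream of the gene, and its sequence above holds a Klf and an Oct4-Sox2 match. At the other end of the scale, a site 21.9 kb upstream of Mkrn1 had 20 in control and 161 after kd, and a site 31.3 kb upstream of Galm had 23 and 171. Each of these sites was picked for its ratio, so the values describe the extremes.

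**Figure D2:**
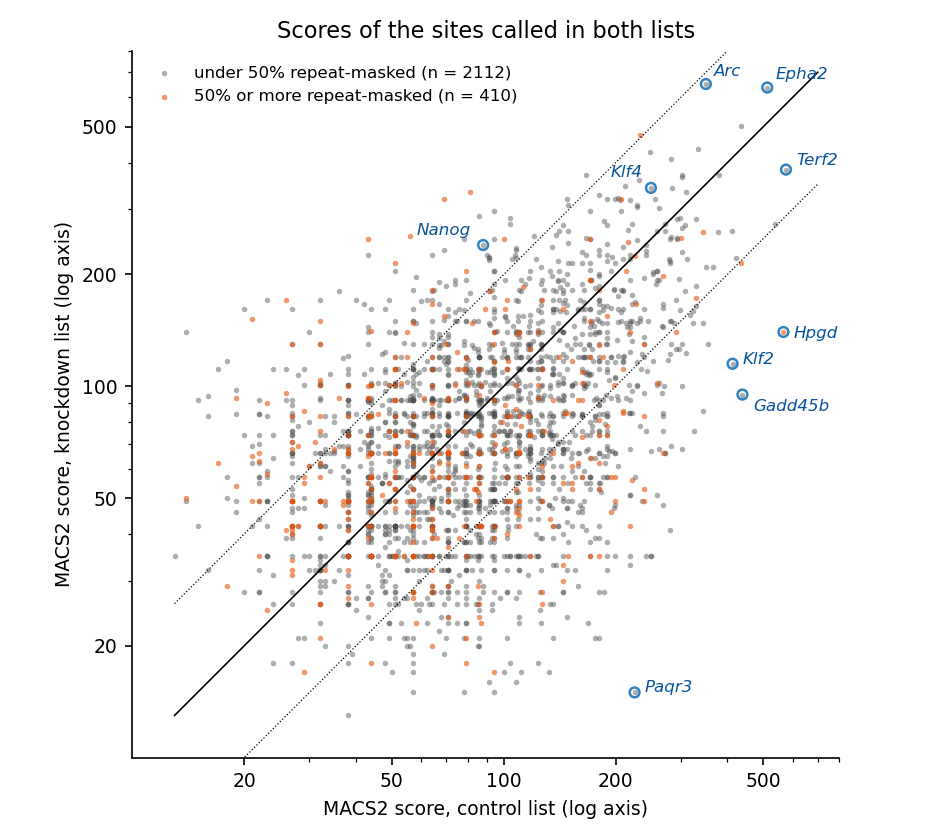
MACS2 score of the 2522 shared sites in the control list (x axis, log scale) and in the kd list (y axis, log scale), with the line of equal scores, dotted lines at 2-fold and named sites circled. More sites lie below the lower dotted line (503) than above the upper one (267), and the Hpgd (566 and 140), Klf2 (413 and 115) and Gadd45b (439 and 95) sites stand apart at the right.

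Sites called in 1 list alone reached high scores in few cases. The strongest control-only site, 212 kb upstream of Fbxl4, had a score of 311, and the strongest with little masked sequence, 46.8 kb upstream of the RNA-binding protein gene Qk, had 280. At both, H3K27ac was called in control alone as well. The 5 strongest kd-only sites had scores of 184 to 347, and 4 of them were at least 50% repeat-masked. The strongest kd-only site with little masked sequence lay far from any protein-coding gene, 477 kb upstream of Olfr161, with a score of 196. The kd-only site 9.62 kb upstream of the potassium channel gene Kcnh3 had a score of 161, kept H3K27ac in both conditions and holds the CTCF match printed above.

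H3K27ac islands covered 2910 of the 6231 sites (46.7%, 45.5 to 47.9) in both conditions, 1269 (20.4%, 19.4 to 21.4) in control alone and 2052 (32.9%, 31.8 to 34.1) after kd alone. Over the 35958 merged Smarca4 sites in an H3K27ac island, 12.0% had it in control alone and 33.3% after kd alone. The kd list of islands was longer, with 51100 islands against 39091, and its islands had a median width of 2600 bp against 3400 bp. Islands that held a site of the class made up 4.82% of the control list and 4.81% of the kd list. They were less repetitive than the rest: 30.3% of them in control and 34.5% after kd were at least 50% repeat-masked, against 79.1% and 74.1% of all islands.

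Smarca4 and H3K27ac were called in the same condition at many sites but not at all. Of the control-only Smarca4 sites, 41.2% (39.0 to 43.4) had H3K27ac in control alone, 33.1% (31.0 to 35.2) in both and 25.8% (23.8 to 27.8) after kd alone. Of the kd-only Smarca4 sites, 41.9% (39.7 to 44.2) had H3K27ac after kd alone, 47.5% (45.2 to 49.8) in both and 10.6% (9.27 to 12.1) in control alone. Shared Smarca4 sites kept H3K27ac in both conditions in 56.4% (54.5 to 58.3) of cases. Read from the acetylation side, 61.6% of the sites with H3K27ac in control alone were control-only for Smarca4, whereas 37% of those with H3K27ac after kd alone were kd-only for Smarca4 and 39.2% were shared. At 489 sites the Smarca4 peak was called in control alone and H3K27ac after kd alone, and at 192 sites the reverse held.

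H3K27me3, the repressive mark that the Ezh2 enzyme of the Polycomb complex PRC2 deposits, was not used to choose the sites. It covered 657 of them (10.5%, 9.81 to 11.3) in control and 385 (6.18%, 5.61 to 6.80) after kd, while at sites in gene bodies or near a TSS the shares were 34.8% and 26.5%. The overlap was concentrated at the sites with H3K27ac after kd alone, where 449 of 2052 (21.9%, 20.1 to 23.7) lay in an H3K27me3 island in control and 207 (10.1%, 8.86 to 11.5) after kd. At the sites with H3K27ac in control alone, the shares were 6.78% (5.52 to 8.29) in control and 7.25% (5.95 to 8.81) after kd, and at sites with H3K27ac in both 4.19% (3.52 to 4.98) and 2.96% (2.40 to 3.64). The H3K27me3 list was shorter after kd as a whole, with 18320 islands against 22909. An Ezh2 peak lay on 2 of the sites in control and on 4 after kd.

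**Figure D3:**
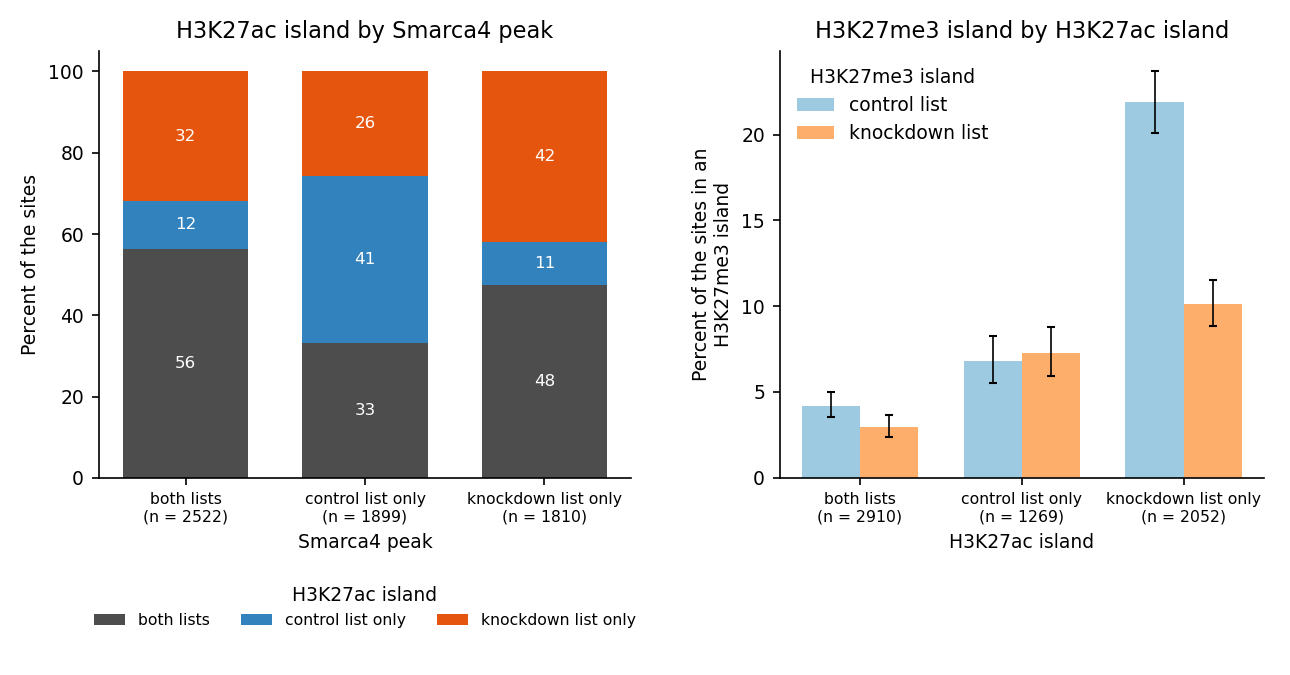
Left, share of sites (y axis, percent) with an H3K27ac island in both lists, in control alone or after kd alone, by the Smarca4 lists that held the site. Right, share of sites (y axis, percent, with 95% Wilson intervals) in an H3K27me3 island in the control and kd lists, by the H3K27ac lists that held the site. Sites with H3K27ac after kd alone lay in an H3K27me3 island in 21.9% of cases in control and in 10.1% after kd.

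The sequence of the sites was not used to choose them. In the central 500 bp, the Esrrb motif stood in 3.03% (2.64 to 3.49) of the sites, the Klf motif in 7.70% (7.07 to 8.39), the Stat motif in 2.13% (1.80 to 2.52), the Oct4-Sox2 core in 2.41% (2.06 to 2.82) and the CTCF consensus in 0.979% (0.763 to 1.26). In all 2626860 windows of 500 bp that tile the distal space of the genome, the shares were 0.935%, 2.57%, 1.24%, 1.37% and 0.199%. The octamer, which shares the letters GCAT with the Oct4-Sox2 core, went the other way, with 3.18% (2.77 to 3.64) at the sites and 4.99% in the tiles, and the AP-1 motif (TGANTCA) was found in 16.5% (15.6 to 17.4) and 14.4%. Base composition was not matched between the sites and the tiles. Other Smarca4 sites also held the Klf, Stat and CTCF motifs. Distal sites without H3K27ac or H3K4me3 held them in 7.77% (7.35 to 8.23), 1.94% (1.72 to 2.18) and 1.80% (1.60 to 2.04). Over all merged Smarca4 sites the shares were 6.88%, 1.66% and 1.11%. Distal sites with both active marks held them in 2.10%, 0.712% and 0.285%, and in 7.47%, 2.76% and 1.33% when under 50% repeat-masked. Distal sites with H3K27ac and H3K4me3 held the Esrrb motif in 0.364% (0.243 to 0.545) and the Oct4-Sox2 core in 0.522% (0.372 to 0.732) of cases, and distal sites without either mark held them in 2.15% (1.92 to 2.40) and 1.74% (1.54 to 1.97). This order rested in part on repeats. Among sites under 50% repeat-masked, the Oct4-Sox2 core stood in 1.70% (1.36 to 2.11) of the class, 2.13% (1.44 to 3.15) of the distal sites with both active marks and 1.47% (1.27 to 1.70) of those with neither, with overlapping intervals. The Esrrb motif stood in 2.98% (2.53 to 3.51), 1.69% (1.08 to 2.62) and 2.11% (1.87 to 2.38), and there the interval of the class lay above that of the sites with neither mark.

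The motifs were then counted by the condition in which Smarca4 was called. Among sites under 50% repeat-masked, the Oct4-Sox2 core stood in 35 of 1423 control-only sites (2.46%, 1.77 to 3.40), in 30 of 2112 shared sites (1.42%, 0.997 to 2.02) and in 13 of 1061 kd-only sites (1.23%, 0.717 to 2.09). CTCF, the factor that bounds chromatin loops, showed the opposite order and a larger difference, with its consensus in 4 control-only sites (0.281%, 0.109 to 0.721), 23 shared sites (1.09%, 0.727 to 1.63) and 27 kd-only sites (2.54%, 1.75 to 3.68). The octamer and the Stat motif were also less frequent at kd-only sites, with 1.89% (1.22 to 2.89) against 3.65% (2.80 to 4.76) and 1.41% (0.859 to 2.32) against 2.67% (1.95 to 3.64) at control-only sites. Between control-only and kd-only sites, the intervals of CTCF did not overlap, whereas those of the Oct4-Sox2 core, the octamer, Stat, Klf, Esrrb and AP-1 did.

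Within the shared sites under 50% repeat-masked the same order ran along the score ratio. Divided at log2 ratios of -0.83, -0.18 and 0.41, the Oct4-Sox2 core was found in 13 of the 530 sites with the lowest ratios (2.45%, 1.44 to 4.15), in 10 of 526 and 6 of 528 sites in between and in 1 of the 528 sites with the highest ratios (0.189%, 0.0334 to 1.06). The CTCF consensus was found in 1 site of the lowest group (0.189%, 0.0333 to 1.06) and in 8 sites of the highest (1.52%, 0.770 to 2.96), with overlapping intervals. The same order of both motifs was found at other sites under 50% repeat-masked. At distal sites without H3K27ac or H3K4me3, the CTCF consensus stood in 0.589% (0.431 to 0.804) of control-only and 4.70% (4.0 to 5.50) of kd-only sites, and at sites in gene bodies or near a TSS in 0.764% (0.661 to 0.884) and 2.24% (1.99 to 2.52). The Oct4-Sox2 core stood in 1.63% (1.35 to 1.97) and 1.13% (0.816 to 1.57) of the former, with overlapping intervals. Of the latter it stood in 1.56% (1.41 to 1.72) and 0.804% (0.659 to 0.980). The order of both motifs between control-only and kd-only sites was the same with peaks of a score of at least 50 alone, with lists of equal length and without chromosome 8. The intervals of the Oct4-Sox2 core no longer overlapped with a score of at least 50, at 2.44% (1.71 to 3.46) and 0.480% (0.163 to 1.40), or with lists of equal length, at 2.63% (1.86 to 3.71) and 0.951% (0.517 to 1.74).

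**Figure D4:**
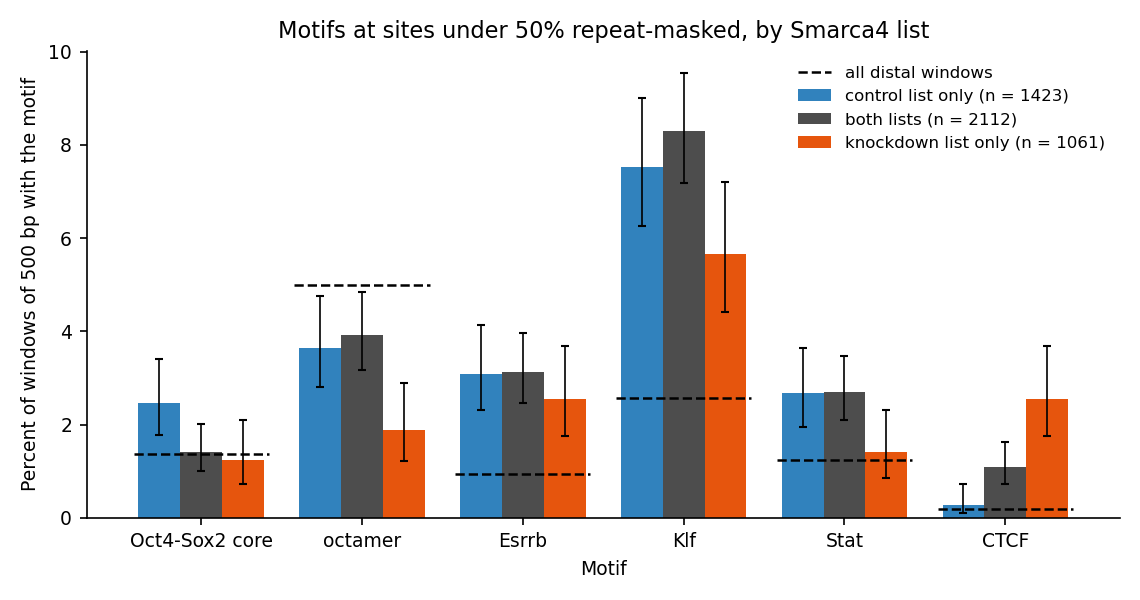
Share of sites (y axis, percent, with 95% Wilson intervals) whose central 500 bp held each of 6 motifs, for sites under 50% repeat-masked called in control alone (n = 1423), in both lists (n = 2112) and after kd alone (n = 1061). Dashed lines give the share over all windows of 500 bp of the distal space. The bars of the CTCF consensus, from 0.281% to 2.54%, are those whose control-only and kd-only intervals do not overlap.

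Repeat-masked sites were examined in the same way. A word of 20 letters that stands in the B1 element, a short interspersed repeat of rodents, was the most frequent word among the 1635 masked sites. It was found in 153 of 749 kd-only sites (20.4%, 17.7 to 23.5), 51 of 476 control-only sites (10.7%, 8.24 to 13.8) and 59 of 410 shared sites (14.4%, 11.3 to 18.1). The word was chosen from these same sites, of which kd-only sites were the largest group, so its shares describe them and are no test. It stood in 3.87% of the sites of the class under 50% repeat-masked. Whatever their masking, 1.79% of distal sites with both active marks and 1.88% of all merged Smarca4 sites held it. The Oct4-Sox2 core was more frequent in masked than in other sites, with 4.4% (3.51 to 5.51) against 1.70% (1.36 to 2.11), and reached 9.03% (6.78 to 11.9) of masked control-only sites against 0.935% (0.453 to 1.92) of masked kd-only sites. Part of these matches came from copies of a single repeated sequence: the most frequent word of 20 letters that contains the core was found in 16 masked control-only sites, 5 shared and 0 kd-only. This word, too, was chosen from the same masked sites.

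Each site was given to the protein-coding gene with the nearest annotated start, at most 100 kb away, which is an assignment by distance and no evidence of regulation. The median distance was 21123 bp, 5501 sites (88.3%) had a gene within 100 kb, and these sites belonged to 1834 of 21911 protein-coding genes (8.37%). Over these 5501 sites, 28.8% were control-only, 30.4% kd-only, 48.4% had H3K27ac in both conditions and 34.6% after kd alone. Of the 2246 shared ones, 1233 (54.9%) had a log2 ratio below 0.

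The core pluripotency factors Pou5f1 (Oct4), Sox2 and Nanog all had sites, 34 in total, of which 16 were shared, 6 control-only and 12 kd-only, and 26 (76.5%) had H3K27ac in both conditions. The ratio was below 0 at 10 of the 16 shared sites (62.5%), with a median of -0.29. The 4 sites of Pou5f1 lay 14.1 to 17.5 kb upstream of its annotated start, and the strongest had a score of 175 in control and 92 after kd. All 3 of its shared sites had lower scores after kd. Sox2 had 14 sites within 100 kb, 13 of them 78 to 97.5 kb downstream. The strongest of these in control had 118 in control and 69 after kd, and the strongest after kd had 71 and 117, so that neighbouring sites went opposite ways. A further 6 sites nearest to Sox2, looked up after the values were seen, lay 101 to 117 kb downstream, with 144 in control and 168 after kd at the strongest in control and 133 and 204 at the strongest after kd. Nanog had 16 sites, 6 shared, 4 control-only and 6 kd-only, and 4 of the 6 shared ones had lower scores after kd, among them a site with 75 and 28. Its strongest site after kd, the one farthest upstream, had 88 in control and 240 after kd with H3K27ac called after kd alone, and the next, 37.2 kb upstream, had 117 and 196 with H3K27ac in both. The site 21.3 kb upstream, whose sequence above holds the Oct4-Sox2 core, had 86 and 66, with H3K27ac called after kd alone.

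Genes of the naive network and its partners had sites at 13 of 21 genes, 102 in all, of which 62 were shared, 15 control-only and 25 kd-only. H3K27ac was called in both conditions at 75 of them (73.5%, against 48.4% of all assigned sites), and the log2 ratio was below 0 at 41 of the 62 shared sites (66.1%, against 54.9% of all), with a median of -0.21 (-0.12 over all 2246 assigned shared sites). The 3 Klf genes, which encode zinc-finger factors that can replace each other in maintaining the naive state, went different ways. Klf2 had 10 sites 3.59 to 18.6 kb from its start, 8 shared and 2 control-only, and the strongest had 413 in control and 115 after kd. The others included scores of 164 and 120, 148 and 68, 129 and 64, and 88 and 29, and 1 of the 8 shared sites had a higher score after kd (30 and 35). Klf4 had 7 sites 51.5 to 60.5 kb downstream, 6 of them shared and all with H3K27ac in both. The 2 strongest had 249 in control and 342 after kd and 255 and 320, and the weaker ones were alike in both lists, with 116 and 129, 108 and 106, 86 and 91, and 24 and 26. Klf5 had 17 sites 22.4 to 49.8 kb downstream, 13 of them shared, with ratios in both directions. Scores were lower after kd at the strongest control site, with 234 and 111, and at sites with 181 and 140, 153 and 117, and 93 and 41. Smaller falls were 118 and 117, 57 and 49, 56 and 49, and 32 and 26. The scores that rose were 43 and 140, 44 and 111, 22 and 92, 81 and 111, and 61 and 76.

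The remaining naive genes also had ratios in both directions. Zfp42 (Rex1), a marker of the naive state, had 18 sites, all with H3K27ac in both conditions, with scores of 164 and 182 at the strongest and 60 and 170 at a site 26.5 kb upstream. Prdm14, a repressor of primed-state genes, had 14 sites, the strongest 31.9 kb downstream with 190 and 140, whose printed sequence holds a Stat and an Oct4-Sox2 match, and 5 were control-only. Sall4 had 10 sites with 144 in control and 28 after kd at the strongest. Mycn had 13 sites with 194 and 204 at the strongest and lower scores after kd at the other 7 shared ones. The single site of Fgf4 had 148 and 47. Dppa3 (Stella), a gene of the oocyte and the naive state, had 5 sites, all with H3K27ac called after kd alone. Smarca4 was called in both lists at 3 of them and after kd alone at 2, with 302 and 266 at the strongest and 181 and 167 at the site whose sequence above holds the CTCF and octamer matches. The last of them ends less than 1 kb from the Nanog site with 88 and 240. Tbx3, Nr5a2, Dppa5a and Lin28a had 1 to 3 sites each with scores of at most 171. Esrrb and Tfcp2l1 were among the 8 genes of the list with 0 sites.

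Genes of the LIF-Stat3 pathway, which the culture medium activates, had sites at 4 of 6 genes. Of their 26 sites, 21 (80.8%, against 34.6% of all assigned sites) had H3K27ac after kd alone, 5 in both and 0 in control alone. Socs3, the feedback inhibitor of the pathway, had 8 sites that all had H3K27ac after kd alone, in 4 islands of 13400 bp in total, against 0 islands in control, and the highest −log10 p of these islands was 18.8. Smarca4 at its strongest site had 221 in control and 167 after kd. Lif itself had 9 sites, 7 with H3K27ac after kd alone, with 190 and 38 at the strongest and 181 and 150 at the next. The co-receptor gene Il6st had a site 23.8 kb upstream with nearly equal scores of 271 and 273. Jak1 and Stat3 had 0 sites.

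The Nodal and BMP pathways had sites at 6 of 8 genes, 28 in all, of which 17 were shared, 8 control-only and 3 kd-only, and 13 of the 17 shared sites (76.5%, against 54.9% of all) had lower scores after kd. Lefty1, a secreted Nodal inhibitor, had 14 sites with 219 and 124 at the strongest, and 8 of its 9 shared sites had lower scores after kd. Its neighbour Lefty2 had 1 site with 16 and 94. Nodal had 140 and 103 at 1 site and 38 and 121 at another. The inhibitory Smad gene Smad7 had 6 sites, of which 5 had H3K27ac after kd alone. Both sites of Bmp4 were called in control alone, for Smarca4 with scores of 57 and 21 and for H3K27ac.

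In the primed and germ layer list and in the nervous system list, the share of genes with a site had an interval that included the 8.37% of all protein-coding genes. Of 13 primed and germ layer genes, 1 had a site (7.69%, 1.37 to 33.3), Dnmt3a with 19 and 49. Of 25 nervous system genes, 4 had sites (16.0%, 6.40 to 34.7), 9 in all, and 7 of the 9 (77.8%, against 34.6% of all assigned sites) had H3K27ac after kd alone. Sox1, an early neuroectoderm factor, had 5 of them, 3 with nearly equal Smarca4 scores of 379 and 370, 140 and 148, and 142 and 142, all 5 without an H3K27ac island in control, and 4 of them inside H3K27me3 islands in both conditions. Irx3 had 1 site, which was control-only with a score of 104. Adhesion genes had sites at 6 of 13 genes (46.2%, 23.2 to 70.9), 23 in all, and this interval lay above 8.37%. The integrin gene Itga6 had 8 sites with 199 and 320 at the strongest, the laminin gene Lamc1 8 sites with 190 and 272, and both sites of the fibronectin gene Fn1 were control-only for Smarca4, with scores of 108 and 102, and for H3K27ac. Of 17 genes of BAF subunits, Arid1a and Ss18 had sites (11.8%, 3.29 to 34.3), and neither Smarca4 nor Smarcb1 did.

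**Figure D5:**
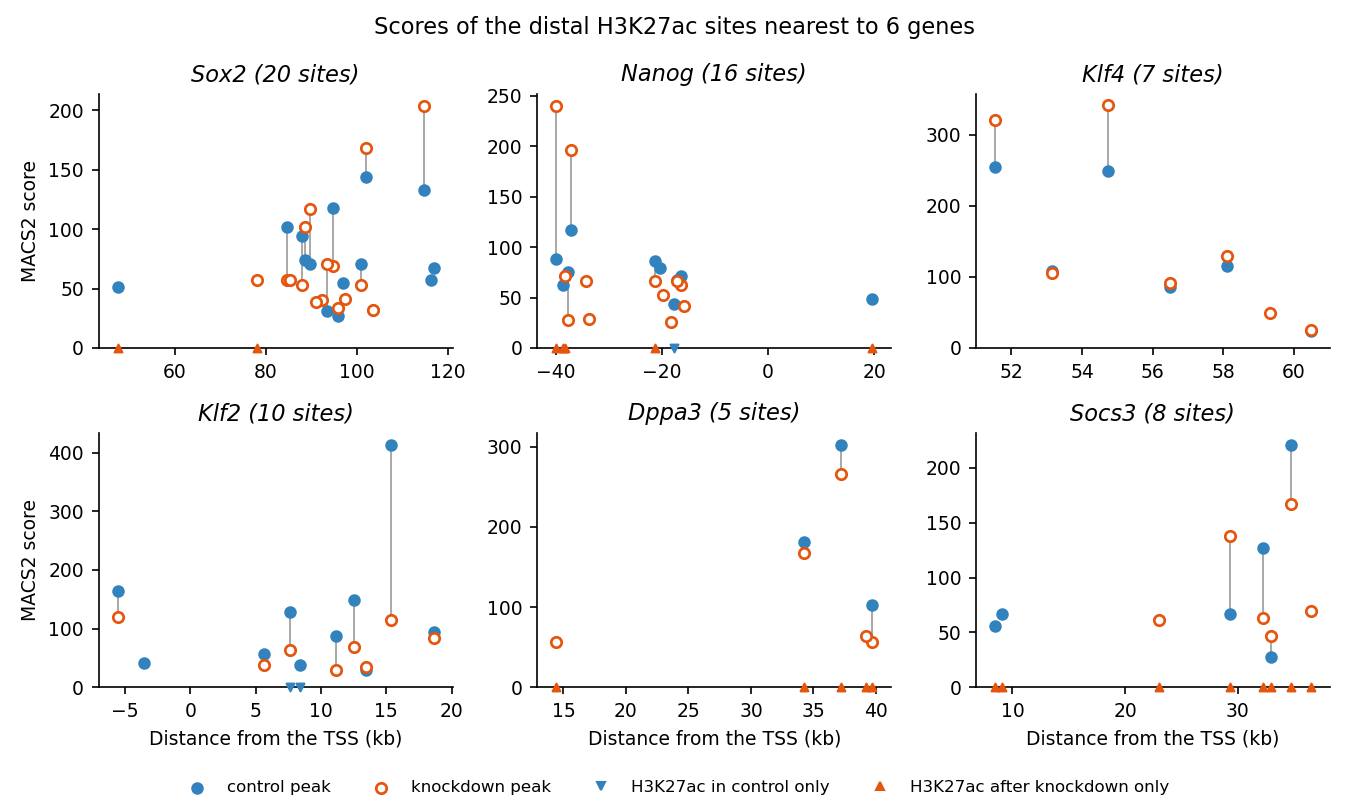
MACS2 score (y axis) of the sites nearest to Sox2, Nanog, Klf4, Klf2, Dppa3 and Socs3 against the distance from the TSS (x axis, kb, positive values downstream), with filled points for the control list, open points for the kd list and a line joining the scores of a shared site. Triangles on the axis mark sites with H3K27ac in 1 condition alone, which was after kd at all sites of Dppa3 and Socs3. Klf4 and Nanog have their highest open points above the filled ones, and Klf2 has its highest filled point at 413 above an open point at 115.

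The sites were unevenly spread. Chained at distances of up to 10 kb, they formed 2399 groups, of which 1134 were single sites and 319 held 5 or more sites, and the latter contained 2625 sites (42.1%). In the groups of 5 or more, 47.1% (45.2 to 49.0) of the sites were shared, 20.8% (19.3 to 22.4) control-only and 32.1% (30.4 to 33.9) kd-only, and 63.7% had H3K27ac in both conditions. Single sites were shared in 28.8% (26.3 to 31.5), control-only in 42.2% (39.4 to 45.1) and kd-only in 28.9% (26.4 to 31.6) of cases, and 24% had H3K27ac in both. The largest group, within 100 kb of Klf2 on chromosome 8, held 30 sites in 70.1 kb, with 18 shared, 7 control-only and 5 kd-only. Groups near Smarcad1, itself a gene of an SNF2-type remodeler, and near Irf2bpl held 27 sites each, and the Smarcad1 group had 3 control-only and 16 kd-only sites, all 27 with H3K27ac in both conditions. The group near Jarid2, a gene of a PRC2 cofactor, held 25 sites, 14 shared, 4 control-only and 7 kd-only. Near Mkrn1, 19 sites held 0 control-only and 8 kd-only.

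By chromosome, the sites were densest on chromosome 11, with 115 per 10 Mb of distal space, followed by chromosome 19 with 86.7 and chromosome 8 with 82.0. All merged Smarca4 sites were also densest on chromosome 11, with 702 per 10 Mb of its whole length. Chromosome 8 also leaned towards control, with 38.4% control-only and 19.4% kd-only sites and a median log2 ratio of -0.40. Over all merged Smarca4 sites of that chromosome, the shares were 37.6% and 21.3% and the median was -0.15. Chromosome 13 leaned the same way, with 38.1% control-only and 24.2% kd-only sites and a median of -0.43. Over all merged Smarca4 sites of chromosome 13 these were 35.2%, 25.8% and -0.06. On chromosome X, 43.0% of the sites were kd-only, against 41.8% of all merged Smarca4 sites there. Without chromosome 8, 29.8% of the remaining 5752 sites of the class were control-only, 29.9% kd-only, and the median log2 ratio was -0.14.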

How the data were processed

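ChIP-seq of 5 antibodies was carried out in control and kd cells, 1 library each, next to input libraries. According to the submitters' processing notes and the methods of the study, reads were trimmed with Trim Galore, aligned to mm10 with Bowtie2 and filtered with SAMtools 1.9 for uniquely mapped reads. The authors called Smarca4 and Ezh2 peaks with MACS2, whose deposited score column was used, and histone islands with SICER, whose deposited p-value column was used. The peak names speak of an IgG background and the methods of input, which was not resolved. Per the methods, the Smarca4 and H3K27me3 libraries were made by a company and the others by the laboratory and its core facility. No reads or depths were used here, and neither list was scaled to another.

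From the deposited lists, Smarca4 peaks were merged with bedtools 2.31.1, and overlaps of at least 1 bp, distances to GENCODE M21 genes and repeat-masked bases of GRCm38 were computed in Python 3.11.15. The methods name a later GENCODE release. A site took the highest score of its peaks in a list. Lines on unplaced sequences (94 in the Smarca4 lists) were left out. Named sites are, by rule, the 10 highest scores per condition, the 5 highest called once, the lowest and highest score ratios, the longest groups and the sites of the gene lists, and any other named site was picked after its values were seen. The members, gene lists and motifs were chosen with earlier results of these data known. Interval, score and motif steps were tested on simulated data. Alternatives were another score or p limit, distance, gene set, overlap, list length, repeats and chromosomes. Results for some genes of these rules and lists are not reported here.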

Additional observations from a re-analysis of the deposited data

How the results depend on the processing

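No paired analysis was possible because each antibody had 1 library per condition, and no library could be left out for the same reason. The number of sites was 4005 with peaks of a score of at least 50 and 3287 at over 10 kb from a TSS. With peaks of a score of at least 50, 39.4% were control-only, 23.5% kd-only and 49.4% had H3K27ac in both, and the median log2 ratio was -0.10. At over 10 kb these were 32.4%, 27.1%, 44.8% and -0.22. With H3K27ac islands of p at most 1e-10, 28.1% were control-only and 42.3% had H3K27ac in both. With lists of equal length, 28.2% were control-only and 31.9% kd-only, which turns their order. Without sites at least 50% repeat-masked, 23.1% were kd-only and 44.1% had H3K27ac in both, and with islands over at least 50% of a site 44.5% did. The other settings left these 5 values within the counting error or, for the number of sites, within 1.5 times. Leaving out chromosome 8 and the motif counts under other settings were added after the data were seen. Of the latter, the Oct4-Sox2 core at kd-only sites moved, to 0.480% with a score of at least 50. The unknown depth limits every site near the lowest score, and the cause of these shifts was not tested.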

Other observations

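The genes with most sites, picked here after their counts were seen, lay mostly outside the lists. Irf2bpl had 31 sites within 100 kb, of which 20 were shared, 1 control-only and 10 kd-only. Sall1, a zinc-finger factor gene related to Sall4, had 24 sites with 12 shared, 10 control-only and 2 kd-only. Zfp217 had 21 sites with 10, 6 and 5, and Klf9 19 sites with 7, 5 and 7. The H3K27ac islands behind the sites of Klf2 were 1 island of 35400 bp with a −log10 p of 20.7 in control and 4 islands of 25800 bp in total with a highest −log10 p of 150 after kd. At Prdm14, 1 island of 35400 bp in control stood against 4 of 31400 bp after kd, with a highest −log10 p of 156 and 106. Island p-values depend on the depth of a library and were not compared further.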
